A study of Mus musculus with 24 samples.

Results

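The surfactant genes and the genes of the alveolar type 2 (AT2) cell were followed as a list of 10: Sftpa1, Sftpb, Sftpc, Sftpd, Abca3, Lamp3, Napsa, Lpcat1, Slc34a2 and Etv5. They were taken by symbol from the gene annotation deposited with the counts, and they are 10 of the 57010 genes in the count table. All 10 passed the filter on low counts that left 23831 genes for testing, and the lowest count of any of them in any library was 1454, for Etv5.

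Surfactant is the film of phospholipid and protein that lowers surface tension in the alveolus, and it is made, stored and recycled by the AT2 cell. The cell packs the lipid with surfactant proteins B and C into lamellar bodies and secretes it, while surfactant proteins A and D are collectins of the airspace that bind microbes and lipid. The AT2 cell also renews itself and gives rise to the flat type 1 cell, and high oxygen injures the alveolar epithelium of the newborn lung.

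Whole lungs of newborn C3H/HeN mice were sequenced to compare 2 diets and 2 gases at 2 ages. Selenium-sufficient (SeS) pups came from parents fed 0.4 ppm sodium selenite, and selenium-deficient (SeD) pups came from parents fed less than 0.01 ppm, each from weaning and through breeding. Pups stayed in room air (RA, FiO2 0.21) or were placed in hyperoxia (O2, FiO2 0.85) from the day of birth, and lungs were taken at postnatal day 1 (PN1) or day 3 (PN3). The 8 groups of diet, gas and age held 3 libraries each, 24 in all. Dams were moved between RA and O2 every day. Lungs were perfused with cold saline, and stranded libraries were built from their poly(A) RNA. The deposited group sheet gives each of the 24 libraries its own mouse number, so a p-value measures the spread between pups. Litters are not given in the sources used here.

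Library totals ran from 25.99 to 50.4 M counts. Levels are given as CPM, which are counts scaled to the library total multiplied by the TMM factor of that library. The library labelled SeD O2 PN3 replicate 1 stood apart by Alb, the albumin gene of liver. Alb was at 40173 CPM in it and at no more than 3932 CPM in any other library. The 12 liver genes measured summed to 100777 CPM there, against 171 to 10288 CPM in the rest, and none of the 12 was at 0. In the same library the sums for type 1 cells (6261 CPM), endothelium (1879 CPM), mesenchyme (3168 CPM) and airway club and ciliated cells (1971 CPM) were all below the range of the other 23 libraries, while those of neutrophils (969 CPM against at most 608 CPM) and of proliferation (2066 CPM against at most 1776 CPM) were above it. The oxygen label of SeS O2 PN1 replicate 2 reads 0.21 and goes against its title, by which it was placed. Ddx3y, a Y-linked gene, was above 1 CPM in 11 of the 24 libraries. It was at 0 CPM in SeD O2 PN3 replicates 1, 2 and 3. In SeD RA PN3 it was at 0, 142 and 135 CPM, and in SeS O2 PN3 at 140, 0 and 173 CPM. It was at 0, 133 and 0 CPM in SeS RA PN3. At PN1 it was at 0, 134 and 0.03 CPM in SeS RA and at 144, 0 and 139 CPM in SeS O2. The SeD values at PN1 were 0, 93.7 and 147 CPM in RA and 0, 110 and 0 CPM in O2. The sex balance by this gene thus differed between gases in each diet and between diets in each gas, at both ages. A term for sex was used only in an alternative fit. Results for the 10 genes at PN3 are given with SeD O2 PN3 replicate 1, and for some genes and comparisons also without it.

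A further shift ran with the gas. Olfactory and vomeronasal receptor genes, whose known site is the nose, had a summed level between 111 and 504 CPM under O2 in all 12 libraries. Under RA the sum lay between 22.2 and 44.7 CPM in 10 of 12. The exceptions were SeD RA PN1 replicates 1 (303 CPM) and 2 (672 CPM), and replicate 2 also had the highest TMM factor, 1.22. The part of this shift in the O2 and diet values of the 10 genes was not tested.

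In these lungs Sftpc, the hydrophobic surfactant protein C of the AT2 cell, was the second most abundant of all genes by mean CPM. It took 0.640% to 1.82% of all counts, and the 10 genes together took 0.906% to 2.51%. Per kilobase of exon, the median level over 24 libraries was 12784 RPKM for Sftpc. It was 625 RPKM for Sftpb, the protein without which lamellar bodies do not form, and 413 RPKM for the collectin gene Sftpa1. Slc34a2, the phosphate transporter of the AT2 cell surface, followed at 255 RPKM, Lamp3 of the lamellar body membrane at 188 RPKM and the collectin gene Sftpd at 181 RPKM. Lpcat1, which makes the dipalmitoyl lipid of surfactant, was at 70.2 RPKM and Napsa, a protease that trims the surfactant protein B precursor, at 56.3 RPKM. Abca3, the pump that loads lipid into lamellar bodies, was at 37.9 RPKM, and Etv5, a transcription factor that maintains AT2 identity, at 12.8 RPKM. Each gene stood above the next in this order in 22 to 24 of the 24 libraries, except that Lamp3 stood above Sftpd in 16, so the levels of that pair could not be ordered. The order compares annotated exon lengths on GRCm39 and does not take account of which isoforms were used.

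**Figure D1:**
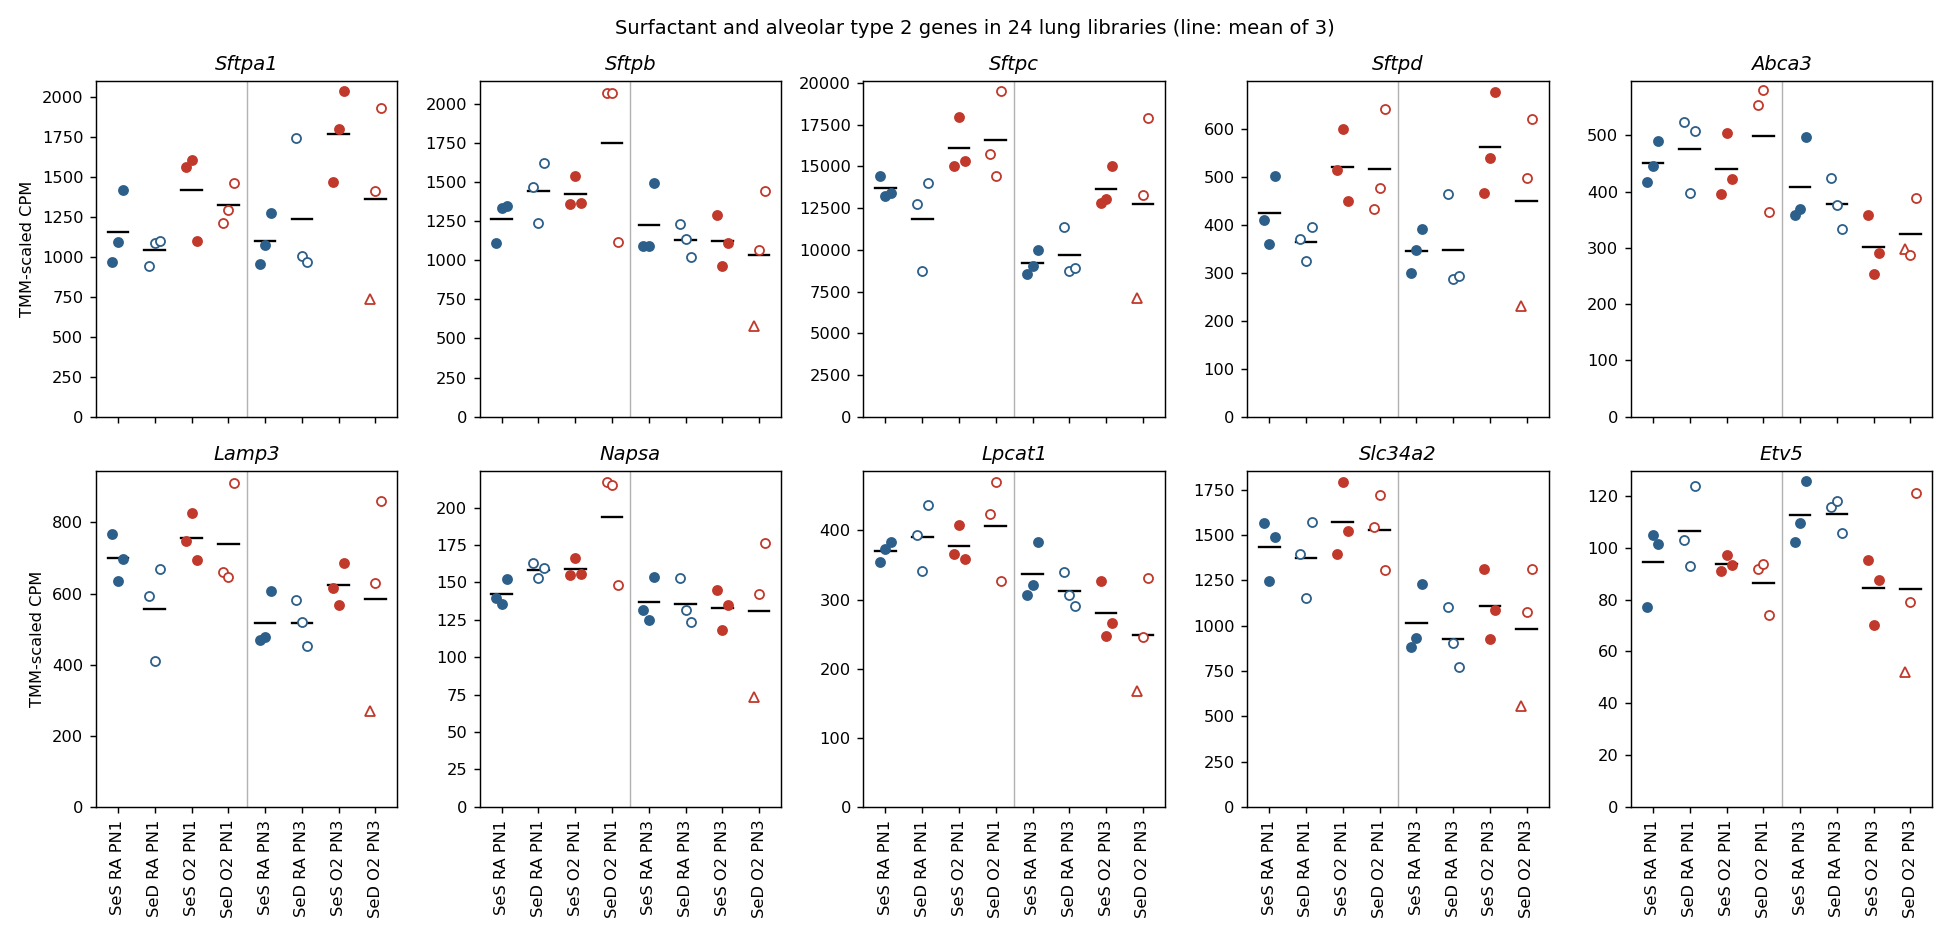
TMM-scaled CPM (y axis, from 0) of the 10 genes in each of the 24 libraries, by group of diet, gas and age (x axis). Blue points are RA and red points O2, filled points SeS and open points SeD, the triangle is SeD O2 PN3 replicate 1 and the black lines are the means of 3 libraries. Sftpc spans 7122 to 19496 CPM, and the triangle is the lowest of all 24 libraries for every gene except Abca3.

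SeD O2 PN3 replicate 1 was the lowest of 24 libraries for 9 of the 10 genes. Their summed level was 10086 CPM in it and 13144 to 25849 CPM in the other libraries. Abca3 was the exception, at 299 CPM against a lowest value of 253 CPM in SeS O2 PN3 replicate 2. Between the lowest and the highest library the 10 genes differed by 2.29-fold (Abca3) to 3.55-fold (Sftpb). In whole lung a lower level cannot be told apart from fewer AT2 cells.

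The genes lie on 7 chromosomes. Sftpa1 (chr14:40853739-40858551, plus strand) and Sftpd (chr14:40894170-40907128, minus strand) lie near each other on GRCm39, with 35618 bases between them. Whether other genes lie in that gap was not examined. Sftpc lies elsewhere on the same chromosome (chr14:70758389-70761524). Exons of Sftpb, Sftpd, Abca3, Napsa and Etv5 overlap genes on the opposite strand. Where the partner was counted its level was small: the median count was 36 for Mbl1 against 13459 for Sftpd, 88.5 for D330041H03Rik against 13967 for Abca3, and 2 for Gm15396 against 4819 for Napsa. The strand setting of the counting is not given in the sources used here.

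The RefSeq table of promoters (GRCm38.p6) held 7 of the 10 genes, with 8 start sites since Etv5 has 2; Sftpc, Sftpd and Napsa were not matched. The 250 bases before the start are shown for 4 genes, 1 (Sftpa1) from the set of genes with the highest values in O2 and 3 (Sftpb, Abca3 and Lpcat1) that varied together across libraries. Capitals mark CAAG, the core of the motif of NKX2-1, the lung epithelial factor that drives surfactant genes, on either strand (CAAG or CTTG). Each is read 5′ to 3′ on the plus strand, from chr14:41131538-41131787, chr6:72304360-72304609, chr17:24351773-24352022 and chr13:73466981-73467230.
Sftpa1: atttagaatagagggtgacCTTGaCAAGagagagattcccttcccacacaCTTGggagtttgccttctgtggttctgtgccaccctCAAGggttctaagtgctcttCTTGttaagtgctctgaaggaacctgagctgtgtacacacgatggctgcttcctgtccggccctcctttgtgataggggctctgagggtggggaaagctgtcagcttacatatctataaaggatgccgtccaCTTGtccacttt
Sftpb: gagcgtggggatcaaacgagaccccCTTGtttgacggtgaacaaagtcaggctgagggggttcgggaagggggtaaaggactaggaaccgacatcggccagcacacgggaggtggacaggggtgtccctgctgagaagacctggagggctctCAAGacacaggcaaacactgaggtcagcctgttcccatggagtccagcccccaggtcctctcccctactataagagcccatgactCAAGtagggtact
Abca3: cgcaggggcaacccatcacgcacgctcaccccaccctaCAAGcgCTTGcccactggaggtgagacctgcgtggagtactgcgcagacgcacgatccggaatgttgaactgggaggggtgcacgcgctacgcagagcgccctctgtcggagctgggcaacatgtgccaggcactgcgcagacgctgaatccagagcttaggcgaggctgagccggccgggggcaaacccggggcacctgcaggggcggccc
Lpcat1: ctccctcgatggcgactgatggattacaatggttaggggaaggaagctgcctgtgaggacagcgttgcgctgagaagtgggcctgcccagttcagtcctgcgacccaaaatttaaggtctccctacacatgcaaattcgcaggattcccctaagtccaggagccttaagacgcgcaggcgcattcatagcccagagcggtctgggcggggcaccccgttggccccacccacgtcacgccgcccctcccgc
CAAG was present 6 times before Sftpa1, 3 times before Sftpb, 2 times before Abca3 and not before Lpcat1. It was in 6 of the 8 promoters of these genes, while 86.6% of the 32841 promoters in the table held it. The forkhead motif TGTTTAC was in 2 of 8 (Lamp3 and 1 start of Etv5), against 3.17% of all promoters. The C/EBP motif TTGCNNAA was in 1 of 8 (Slc34a2), against 9.57%. The ETS motif CCGGAAG and the antioxidant response core TGACNNNGC were in 0 of 8, against 6.91% and 10.2%. All motifs were searched on both strands, and matches of CAAG and of TTGCNNAA can overlap.

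The first question was how O2 moved these genes after 1 day. None of the 10 was called in SeS pups at PN1 by edgeR's quasi-likelihood test (a call needed an adjusted p under 0.05 and a log2 fold change beyond 0.25 in size), where 0.0587% of all genes were called, and 0 had an unadjusted p under 0.05, against 15.4% of all genes. DESeq2 and limma-voom also called 0. Sftpc was 14449, 13246 and 13409 CPM in SeS RA and 15014, 17937 and 15315 CPM in SeS O2. All 3 O2 libraries lay above all 3 RA libraries, and the log2 fold change was 0.23 (SE 0.23, 95% interval -0.25 to 0.71). The groups also did not overlap for Sftpb (0.17, SE 0.25) and Napsa (0.16, SE 0.20). These 3 of 10 genes with higher, non-overlapping values compare with 19.7% of all genes, and 0 were lower without overlap, against 6.06%. Abca3 (-0.03), Etv5 (-0.01) and Lpcat1 (0.03) had the smallest log2 fold changes.

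In SeD pups at PN1 edgeR again called 0 of the 10, with 2.5% of all genes called. Of the 10, 1 (Sftpc) had an unadjusted p under 0.05, against 20.6% of all genes. DESeq2 called 0 and limma-voom called 2, Sftpb and Napsa, both higher in O2, where it called 15.1% of all genes. Limma-voom gave SeD RA PN1 replicate 1 a weight of 6.31 and replicates 2 and 3 weights of 0.259 and 0.173. Its mean of that group therefore rested mainly on replicate 1. Sftpc was 12772, 8731 and 13999 CPM in SeD RA and 15757, 14415 and 19496 CPM in SeD O2, without overlap. Its log2 fold change was 0.48 (SE 0.23, unadjusted p = 0.0485, adjusted p = 0.24 by edgeR). Sftpd (0.51, SE 0.26) and Sftpa1 (0.34, SE 0.27) also did not overlap, which makes 3 of 10 genes against 13.1% of all genes, and 0 were lower, against 8.18%. Lamp3 had a log2 fold change of 0.41 (SE 0.27) with overlapping values. Etv5 had the only negative value, -0.30 (SE 0.20). The libraries of SeD O2 PN1 included replicates 1 and 2, which held the next highest Alb levels (3932 and 2614 CPM). In SeD RA PN1 the low Sftpc value, 8731 CPM, was replicate 2. That library had the highest TMM factor (1.22) and the highest receptor gene sum (672 CPM) of all. With any single library left out edgeR again called 0 of the 10 in this comparison.

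At PN3 in SeS pups the values of the 10 genes went in both directions. Sftpa1, Sftpc and Sftpd had higher values in every O2 library than in any RA library, and Abca3 and Etv5 had lower values in every O2 library. No member of either set passed the test in edgeR, where 27.6% of all genes were called, while 4 of the 10 had an unadjusted p under 0.05, against 39.6% of all genes. The 3 genes higher without overlap compare with 28.4% of all genes, and the 2 lower with 21.5%, so these counts were close to those of all genes.

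Sftpd, the collectin D gene, was 299, 347 and 390 CPM in SeS RA and 466, 540 and 677 CPM in SeS O2. The 2 groups did not overlap, and the log2 fold change was 0.70 (SE 0.26, adjusted p = 0.0537 by edgeR). Sftpa1 was 957, 1072 and 1271 CPM in SeS RA and 1469, 1795 and 2033 CPM in SeS O2. The groups were again apart, by 0.68 on the log2 scale (SE 0.27, adjusted p = 0.0607 by edgeR). Sftpc was 8545, 9049 and 9972 CPM in SeS RA and 12813, 13044 and 15001 CPM in SeS O2. The lowest O2 library exceeded the highest RA library, and the log2 fold change was 0.57 (SE 0.23, adjusted p = 0.0716).

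Abca3, the lipid pump, was 359, 369 and 497 CPM in SeS RA and 358, 253 and 292 CPM in SeS O2. The groups met at 358 and 359 CPM without crossing, and the log2 fold change was -0.44 (SE 0.18, adjusted p = 0.0739). Etv5 was 102, 109 and 126 CPM in SeS RA and 95.3, 70.3 and 87.6 CPM in SeS O2. All O2 values were below 100 CPM and all RA values above it, and the log2 fold change came to -0.41 (SE 0.20, adjusted p = 0.131). Lpcat1 was next, at -0.27 (SE 0.18). The values of Lamp3 (0.27), Slc34a2 (0.13), Sftpb (-0.13) and Napsa (-0.04) overlapped between gases.

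The tools differed on this comparison. DESeq2 called 3 genes higher (Sftpa1, Sftpc and Sftpd), against 30.6% of all genes called by that tool. Limma-voom called these 3 higher and Abca3, Lpcat1 and Etv5 lower, against 41.8% of all genes. The spread in edgeR is estimated over all 24 libraries, so SeD O2 PN3 replicate 1 enters it although it is in neither group. Without that library edgeR called 33.5% of all genes and 5 of the 10: Sftpd (0.68, adjusted p = 0.0113), Sftpc (0.55, adjusted p = 0.012) and Sftpa1 (0.66, adjusted p = 0.0201) were higher, and Etv5 (-0.44, adjusted p = 0.0266) and Abca3 (-0.46, adjusted p = 0.0428) were lower.

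In SeD pups at PN3 none of the 10 genes passed the test in edgeR, where 35.9% of all genes were called. Of the 10, 1 (Etv5) had an unadjusted p under 0.05, against 44.5% of all genes. DESeq2 called 0, and limma-voom called 2 higher, Sftpc and Sftpd, with 35.2% of all genes called. No gene was without overlap in either direction, against 25.7% of all genes higher and 17.6% lower. Sftpc was 11396, 8752 and 8935 CPM in SeD RA and 7122, 13268 and 17908 CPM in SeD O2. The low value was replicate 1, the library rich in Alb, and the other O2 libraries lay above all RA libraries. The log2 fold change was 0.40 (SE 0.23, adjusted p = 0.193) with that library and 0.66 (SE 0.17, adjusted p = 0.00989) without it, in a fit that called 26.4% of all genes.

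Sftpd was 464, 287 and 292 CPM in SeD RA and 231, 497 and 621 CPM in SeD O2. The log2 fold change was 0.37 (SE 0.26, adjusted p = 0.296) with replicate 1 and 0.66 (SE 0.21, adjusted p = 0.0268) without it. Sftpa1 was 1743, 1002 and 969 CPM in SeD RA and 734, 1413 and 1930 CPM in SeD O2. One RA library, replicate 1, stood between O2 replicates 2 and 3, and the log2 fold change was 0.13 (SE 0.27) with the Alb library and 0.40 (SE 0.23, adjusted p = 0.212) without it. Lamp3 moved from 0.18 (SE 0.27) to 0.49 (SE 0.18, adjusted p = 0.0503). Without the Alb library 3 genes (Sftpc, Sftpd and Lamp3) were higher in O2 without overlap, against 32.8% of all genes, and 0 were lower, against 22.6%.

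Etv5 was 116, 118 and 106 CPM in SeD RA and 52.2, 79.0 and 121 CPM in SeD O2. Its highest value in the comparison was O2 replicate 3 and its lowest O2 replicate 1. The log2 fold change was -0.43 (SE 0.20, adjusted p = 0.104) with the Alb library and -0.21 (SE 0.16, adjusted p = 0.382) without it. Lpcat1 was -0.33 (SE 0.18) with it and -0.14 (SE 0.15) without it, and Abca3 -0.22 (SE 0.18) and -0.19 (SE 0.19). The signs of Sftpb (-0.13 with it, 0.12 without it) and Napsa (-0.06 and 0.20) turned.

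**Figure D2:**
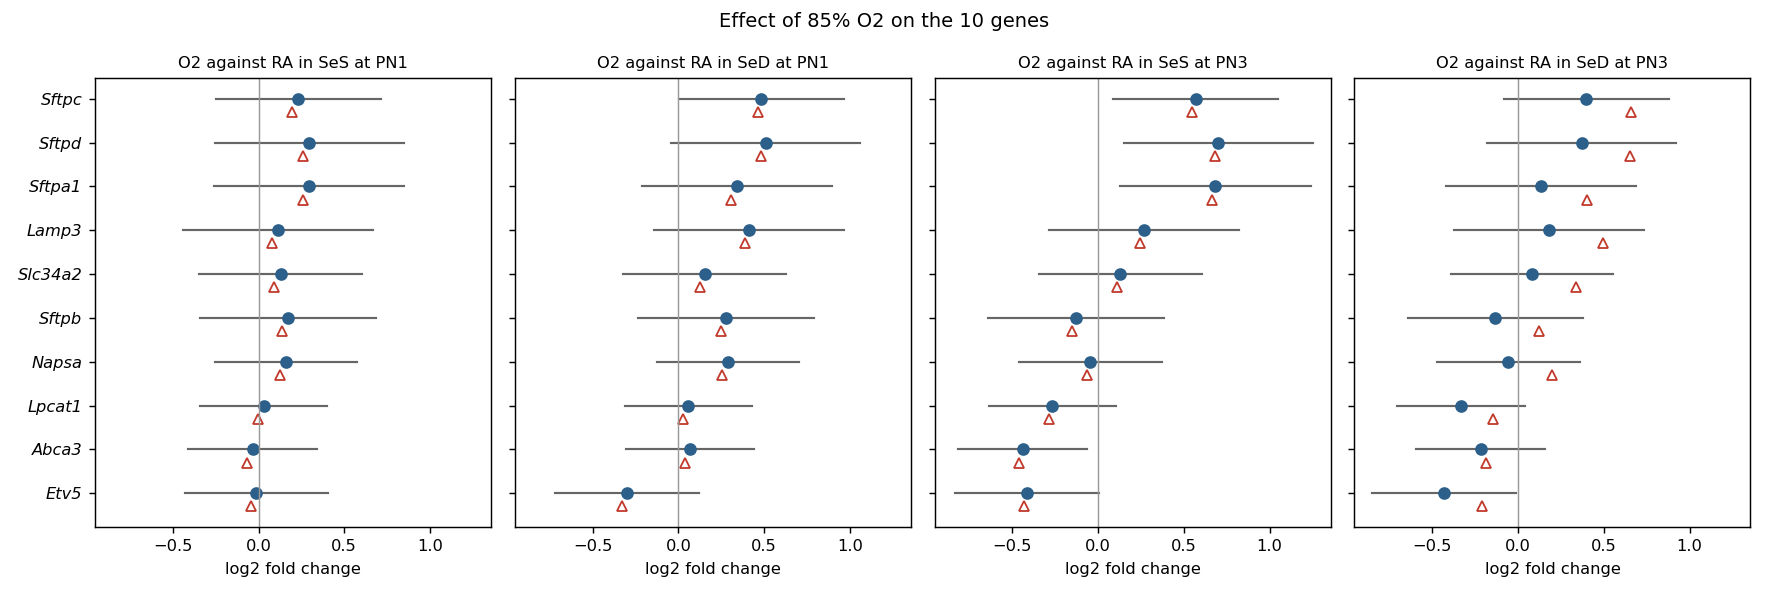
Log2 fold change of O2 against RA (x axis) for the 10 genes (y axis) in the 4 combinations of diet and age. Points are edgeR estimates from 24 libraries with 95% intervals, and open triangles are the estimates without SeD O2 PN3 replicate 1. In SeS at PN3 Sftpd, Sftpa1 and Sftpc lie at 0.57 to 0.70 and Abca3 and Etv5 at -0.44 and -0.41, and in SeD at PN3 the triangle of Sftpc is at 0.66 against a point at 0.40.

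Averaged over both ages, Sftpc in SeD pups was called just inside the threshold, higher in O2 by 0.44 (SE 0.16, adjusted p = 0.0487 by edgeR), and this was the only one of the 10 called, among 25.7% of all genes, and 3 had an unadjusted p under 0.05, against 42% of all genes. In this comparison the median of all genes was 0.10, and that of genes with a mean of at least 5 CPM was 0.01. The call for Sftpc was lost for 16 of the 24 libraries left out in turn, with adjusted p from 0.00172 to 0.158, and 7 of these were SeD libraries: RA PN1 replicate 2 (0.31), O2 PN1 replicates 1 (0.44) and 3 (0.34), RA PN3 replicates 2 (0.35) and 3 (0.35), and O2 PN3 replicates 2 (0.41) and 3 (0.28). It was lost too (adjusted p = 0.0553) when the prior of edgeR was not estimated robustly, and the robust estimate was taken as the main one after counts from the other fit had been seen. It was also lost with library totals in place of TMM (adjusted p = 0.0892), with no filter on low counts (0.105), with only the groups compared (0.165) and with a term for sex (0.136). Sftpd was at 0.44 (SE 0.19, adjusted p = 0.0807) and Etv5 at -0.37 (SE 0.14, adjusted p = 0.0598). With the Alb library left out edgeR called 20.3% of all genes, and among them Sftpc (0.56, adjusted p = 0.00172), Sftpd (0.57, adjusted p = 0.00718) and Lamp3 (0.44, adjusted p = 0.014). In SeS pups 0 of 10 were called, against 26.1% of all genes, with 3 at an unadjusted p under 0.05, against 38.2%. These were Sftpd (0.50, SE 0.19, adjusted p = 0.051), Sftpa1 (0.49, SE 0.19, adjusted p = 0.0569) and Sftpc (0.40, SE 0.16, adjusted p = 0.0728). DESeq2 called the same 3, with 27.5% of all genes, and limma-voom these and Abca3, with 34.7%. Whether the effect of O2 differed between ages was tested directly: edgeR called 0 of 10 in SeS, where it called 0% of all genes, and 0 of 10 in SeD, where it called 17.9%. At an unadjusted p under 0.05 there were 0 of 10 in either diet, against 9.25% of all genes in SeS and 30.7% in SeD, and DESeq2 and limma-voom called 0 in both. For Sftpc in SeS the difference between ages was 0.34 with a 95% interval of -0.34 to 1.01, and for Abca3 -0.41 with an interval of -0.94 to 0.12.

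Ratios between 2 of the genes were also read within each library. The pairs shown were chosen after their values were seen and carry no test. Of all 45 pairs of the 10 genes, the ratio did not overlap between gases for 34 in SeS and 19 in SeD at PN3, and for 7 in SeS and 11 in SeD at PN1. Among all pairs of the 12591 genes with a mean of at least 5 CPM the share was 47.1% and 33.2% at PN3, and 17.3% and 36.9% at PN1. The log2 ratio of Sftpc to Etv5 was 6.31 to 6.39 in SeS RA and 7.07 to 7.54 in SeS O2 at PN3. It was 6.21 to 6.62 in SeD RA and 7.09 to 7.39 in SeD O2 at PN3. The Alb library sat at 7.09, above all RA libraries of that age. At PN1 the ratio was 6.56 to 6.95 in SeD RA and 7.27 to 8.04 in SeD O2, again without overlap. In SeS at PN1 the 2 gases overlapped, at 6.98 to 7.55 in RA and 7.36 to 7.53 in O2.

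The ratio of Sftpc to Sftpb compared the 2 hydrophobic surfactant proteins. It was 2.74 to 3.06 in SeS RA and 3.31 to 3.76 in SeS O2 at PN3. In SeD it was 2.94 to 3.21 in RA and 3.61 to 3.64 in O2, and the Alb library lay within that O2 range. At PN1 it overlapped between gases, at 2.82 to 3.12 in SeD RA and 2.80 to 4.13 in SeD O2, and in SeS at 3.31 to 3.70 in RA and 3.47 to 3.54 in O2. The log2 ratio of Sftpd to Lpcat1 was -0.03 to 0.11 in SeS RA and 0.51 to 1.34 in SeS O2 at PN3. In SeD it was -0.10 to 0.45 in RA and 0.46 to 1.01 in O2. The ratio of Sftpc to Abca3 was 4.33 to 4.62 in SeS RA and 5.16 to 5.69 in SeS O2, while in SeD the ranges overlapped (4.54 to 4.75 in RA and 4.58 to 5.53 in O2). The ratios of Sftpa1 to Sftpb (-0.18 to 0.50 in RA and 0.33 to 0.42 in O2) and to Abca3 (1.41 to 2.04 in RA, inside the range of the O2 libraries) overlapped in SeD at PN3 as well.

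**Figure D3:**
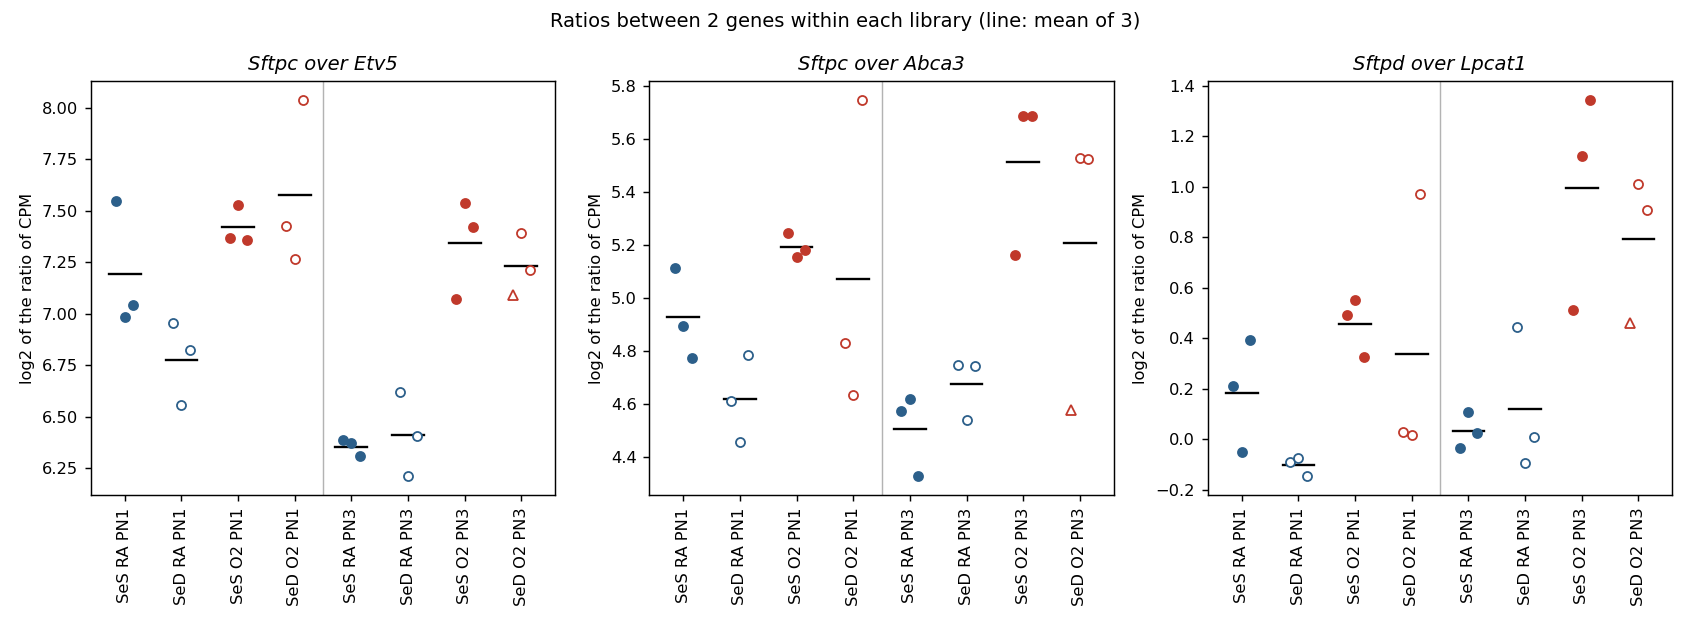
Log2 of the ratio between the CPM of 2 genes (y axis) in each library, by group (x axis), for Sftpc over Etv5, Sftpc over Abca3 and Sftpd over Lpcat1. Colours, filled and open points, the triangle and lines are as in the plot of levels by group. At PN3 Sftpc over Etv5 lies at 6.21 to 6.62 in the 6 RA libraries and at 7.07 to 7.54 in the 6 O2 libraries.

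The second comparison was age. From PN1 to PN3 most of the 10 genes had negative values in each of the 4 combinations of diet and gas, 9, 8, 8 and 9 of 10 in SeS RA, SeD RA, SeS O2 and SeD O2. Lpcat1, the enzyme of surfactant phospholipid, fell by 0.71 on the log2 scale in SeD O2 (SE 0.18, adjusted p = 0.0358 by edgeR), and it was the only one called, among 2.71% of all genes. It was 424, 471 and 327 CPM at PN1 and 168, 247 and 331 CPM at PN3 in SeD O2. The highest PN3 library stood above the lowest PN1 library, so the groups overlapped. The call was lost without the Alb library (-0.51, adjusted p = 0.0911), without SeD O2 PN1 replicate 1 (-0.68, adjusted p = 0.115) or replicate 2 (-0.60, adjusted p = 0.133), and without any of 6 libraries outside this comparison, for 9 of 24 libraries left out in turn. It was also lost with library totals (adjusted p = 0.073), with no filter on low counts (0.0754) and with only the groups compared (0.453).

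In the same SeD O2 comparison 5 of the 10 had an unadjusted p under 0.05, against 17.5% of all genes, and 0 were lower without overlap, against 9.38%. Beside Lpcat1 these were Sftpb (-0.76, SE 0.25), Slc34a2 (-0.64, SE 0.23), Abca3 (-0.62, SE 0.18) and Napsa (-0.57, SE 0.20). Sftpb was 2070, 2069 and 1113 CPM at PN1 and 583, 1067 and 1442 CPM at PN3. Its values overlapped, with a pair of high libraries at PN1 and a low one at PN3. Without the Alb library Sftpb was -0.49 and Napsa -0.29. Leaving out SeD O2 PN3 replicate 3 instead gave 5 called genes of the 10, with 6.83% of all genes called.

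In SeS RA 0 of 10 were called by edgeR (1.15% of all genes), 2 had an unadjusted p under 0.05 (13.3% of all genes), DESeq2 called 0 and limma-voom called 2, Sftpc and Slc34a2, with 8.66% of all genes. Sftpc was 14449, 13246 and 13409 CPM at PN1 and 8545, 9049 and 9972 CPM at PN3. The lowest PN1 library stood well above the highest PN3 library, and the log2 fold change was -0.58 (SE 0.23, adjusted p = 0.259). Slc34a2 was 1570.0, 1249 and 1489 CPM at PN1 and 881, 931 and 1229 CPM at PN3, and the log2 difference was -0.50 (SE 0.23, adjusted p = 0.341). With Lamp3 (-0.43, SE 0.27) they made 3 genes lower without overlap, against 10.8% of all genes. Etv5 alone was positive, at 0.25 (SE 0.20).

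In SeD RA 0 of 10 were called by edgeR (21.8% of all genes) and 1 had an unadjusted p under 0.05 (33.6% of all genes), Slc34a2 at -0.57 (SE 0.23, adjusted p = 0.0827). DESeq2 called Slc34a2, with 22.9% of all genes, and limma-voom 6 of the 10, all lower at PN3, with 40.1%. The limma-voom mean at PN1 rested mainly on replicate 1 (library weight 6.31, against 0.259 and 0.173 for replicates 2 and 3). Without SeD RA PN1 replicate 2 edgeR called 3.35% of all genes in this comparison. Slc34a2 was 1395, 1153 and 1570.2 CPM at PN1 and 1103, 906 and 774 CPM at PN3, without overlap. In all, 3 genes were lower without overlap, against 13.6% of all genes. In SeS O2 0 of 10 were called by edgeR (0.185% of all genes), 3 had an unadjusted p under 0.05 (9.81% of all genes), DESeq2 called 0 and limma-voom 3 (Abca3, Lpcat1 and Slc34a2), with 6.04% of all genes. Abca3 was 396, 504 and 423 CPM at PN1 and 358, 253 and 292 CPM at PN3. Every PN3 library was below every PN1 library, and the log2 fold change came to -0.55 (SE 0.18, adjusted p = 0.274). Here 7 of the 10 were lower at PN3 without overlap, against 14.7% of all genes.

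**Figure D4:**
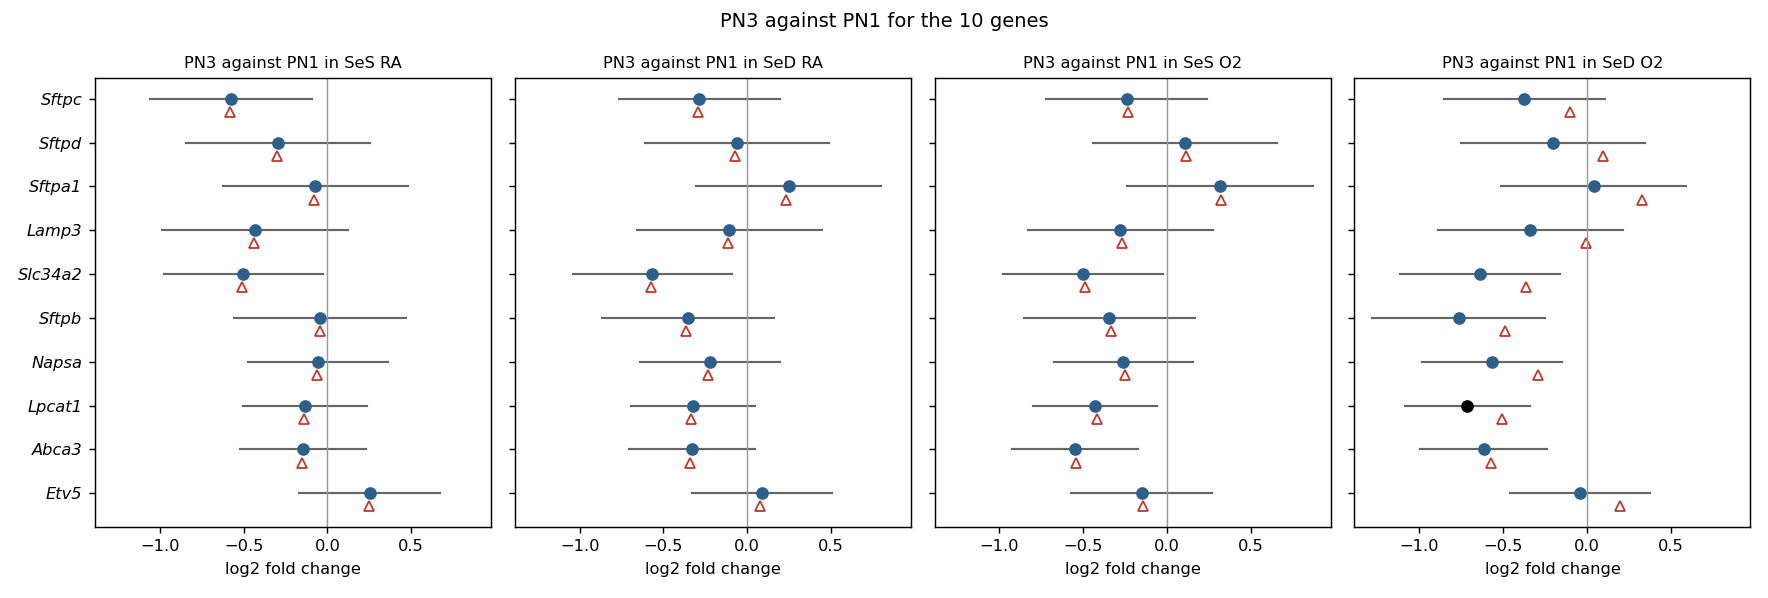
Log2 fold change of PN3 against PN1 (x axis) for the 10 genes (y axis) in the 4 combinations of diet and gas. Points are edgeR estimates from 24 libraries with 95% intervals, the black point is the only called gene and open triangles are the estimates without SeD O2 PN3 replicate 1. Lpcat1 in SeD O2 is at -0.71, and at -0.51 without that library.

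The third comparison was diet. No gene of the 10 was called in SeD against SeS pups in any combination of gas and age by edgeR, DESeq2 or limma-voom, and 0 had an unadjusted p under 0.05. The share of all genes called by edgeR was 14.6% in RA at PN1, 0.0126% in O2 at PN1, 0.0126% in RA at PN3 and 0.143% in O2 at PN3, and the share at an unadjusted p under 0.05 was 25%, 4.52%, 2.62% and 15.9% in the same order. Averaged over both ages the result was the same, 0 of 10 called and 0 at an unadjusted p under 0.05, where edgeR called 0.0126% of all genes in RA and 0.155% in O2 (9.19% and 14.1% at an unadjusted p under 0.05). Without SeD RA PN1 replicate 2 the share in RA at PN1 went from 14.6% to 0.0042% of all genes, and without the robust estimate in edgeR the share in O2 went from 0.143% to 1.23% at PN3 and from 0.155% to 2.06% over both ages. In each of these fits 0 of the 10 were called. The log2 fold changes of the 10 genes ran from -0.38 (Sftpa1 in O2 at PN3) to 0.30 (Sftpb in O2 at PN1). Napsa in RA at PN1 was the only gene without overlap, higher in SeD. Genes without overlap in either direction made up 18.8% of all genes in RA at PN1, 13.2% in O2 at PN1, 9.41% in RA at PN3 and 14.6% in O2 at PN3. Napsa was 140, 135 and 152 CPM in SeS and 163, 153 and 160 CPM in SeD, a difference of 1 CPM between the nearest libraries. The log2 fold change was 0.15 (SE 0.20).

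The intervals show what differences between diets remain possible. For Sftpc the 95% interval was -0.69 to 0.27 in RA at PN1 and -0.44 to 0.52 in O2 at PN1. At PN3 it was -0.40 to 0.56 in RA and -0.57 to 0.39 in O2, from the fit that includes the Alb library. Sftpa1 in O2 at PN3 had an interval of -0.93 to 0.18, and its value moved from -0.38 to -0.08 without the Alb library. The effect of O2 was also compared between diets. At PN3 Sftpa1 had the largest difference, -0.55 (95% interval -1.33 to 0.23, adjusted p = 0.744), and -0.26 without the Alb library. Neither at PN1 nor at PN3 was any of the 10 called by edgeR, DESeq2 or limma-voom, and 0 had an unadjusted p under 0.05 (17.1% of all genes at PN1 and 8.17% at PN3), while edgeR called 0% of all genes at each age. Averaged over both ages 0 of 10 were called or had an unadjusted p under 0.05, against 0.0042% and 10.2% of all genes.

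The 10 genes varied together to different degrees across libraries. Over 24 libraries Pearson r of log2 CPM between pairs ran from -0.14 to 0.96, with a median of 0.59 over 45 pairs. The points share library, depth and cell composition, and the correlations are a description. Without the Alb library the range was -0.42 to 0.97 and the median 0.38, and the values that follow are over these 23 libraries, with sets named after the values were seen. Among the collectins, Sftpc and Lamp3, r was 0.50 to 0.93 over 6 pairs, highest for Sftpc with Lamp3 (0.93) and Sftpa1 with Sftpd (0.87), and lowest for Sftpa1 with Lamp3 (0.50) and with Sftpc (0.53). Among Sftpb, Abca3, Lpcat1 and Napsa it was 0.75 to 0.97 over 6 pairs, highest for Abca3 with Lpcat1 (0.97) and lowest for Napsa with Lpcat1 (0.75). Between the sets it was -0.30 to 0.49 over 16 pairs. Slc34a2 had r of 0.70 to 0.78 with all 4 genes of the second set, Sftpc and Lamp3, but 0.45 with Sftpd and 0.12 with Sftpa1. Etv5 ran from -0.42 with Sftpd and -0.39 with Sftpc to 0.37 with Lpcat1 and 0.44 with Abca3. Taken as deviations from the mean of each group, r of Etv5 with the other 9 genes was positive throughout, 0.16 to 0.86.

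**Figure D5:**
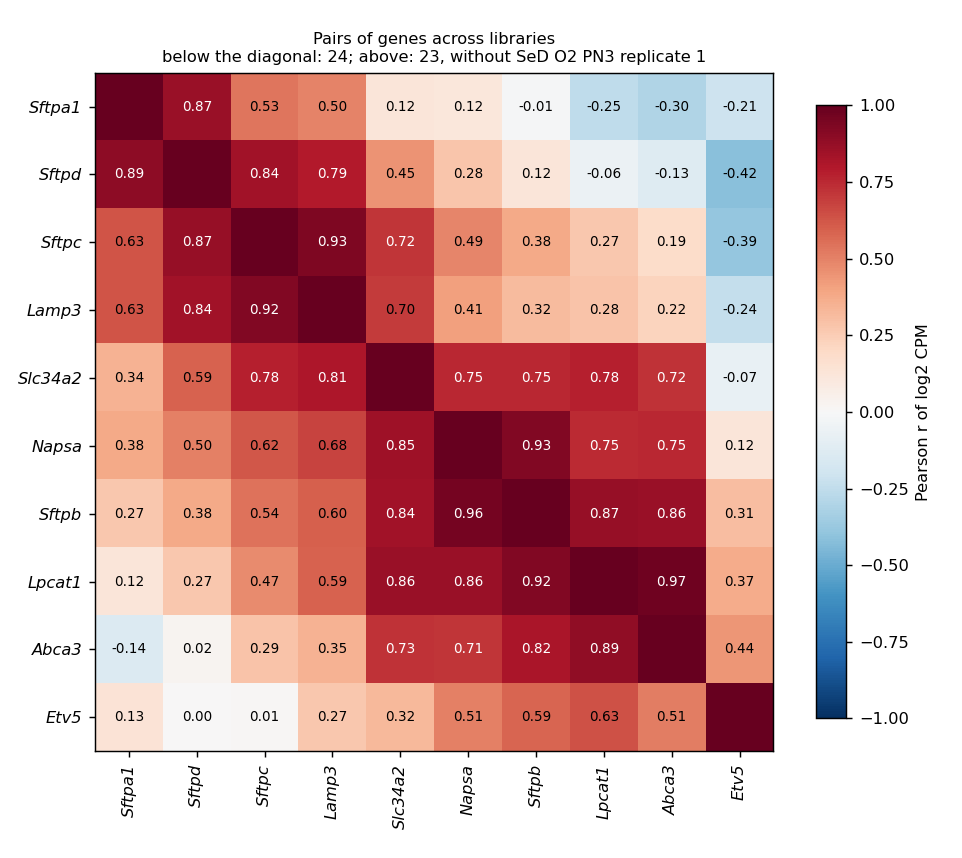
Pearson r of log2 CPM between each pair of the 10 genes (both axes), over 24 libraries below the diagonal and over 23 libraries, without SeD O2 PN3 replicate 1, above it. Red is positive and blue negative. Abca3 and Lpcat1 are at 0.97 above the diagonal, and Sftpd and Etv5 at -0.42.

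Other genes were ranked by how closely they followed the mean of the 10. Over 24 libraries and 12580 genes the highest r was 0.96 for Spint1, a protease inhibitor of epithelium, and 0.95 for Rph3al, a vesicle protein. Ager (0.95), the receptor that marks type 1 cells, came next, and Gramd2 (0.94), Cdcp1 (0.94), Clic3 (0.94), Scnn1g (0.94) and Gprc5a (0.94) followed. Scnn1g codes for a subunit of the sodium channel that clears fluid from the airspace. The order depended on the Alb library. Over 23 libraries Spint1 was again ranked 1 (r = 0.93), Rph3al was ranked 3 (0.90) and Ager 5 (0.89), while Gramd2, Clic3, Cdcp1, Scnn1g and Gprc5a were ranked 9, 11, 12, 17 and 18. The other genes among the first 8 over 23 libraries were Slc25a10 (0.91), a mitochondrial dicarboxylate carrier, Slc52a3 (0.90), a riboflavin transporter, Sdc1 (0.89), Slc1a5 (0.89) and Tmem30b (0.89).

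The other genes of the pathway were read at PN3, where 16.1% of all genes were called higher and 11.5% lower with O2 in SeS, and 23.7% and 12.2% in SeD. The median log2 fold change of all genes was 0.04 in SeS and 0.05 in SeD. Among genes with a mean of at least 5 CPM it was -0.094 in SeS and -0.091 in SeD. That of the 10 genes was 0.04 and 0.01. Among 20 further AT2 markers, all measured, O2 raised 2 and lowered 1 in SeS and raised 4 and lowered 1 in SeD by edgeR, with medians of 0.23 and 0.19. Hc, the complement C5 gene, rose by 0.62 (SE 0.18, adjusted p = 0.0171) in SeS and by 0.84 (SE 0.18, adjusted p = 0.0022) in SeD. S100g, a calcium-binding protein, rose by 1.21 (SE 0.32, adjusted p = 0.0109) in SeS and by 1.23 (SE 0.32, adjusted p = 0.00673) in SeD. Acot7, an acyl-CoA thioesterase, fell by 0.34 in SeS (adjusted p = 0.0346) and by 0.35 in SeD (adjusted p = 0.0257). Leaving out the Alb library gave 4 higher and 1 lower in SeS and 8 higher and 0 lower in SeD, and Fabp5, a fatty acid binding protein, moved in SeD from 1.56 (adjusted p = 0.00385) to 0.58 (adjusted p = 0.011).

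Of 21 genes of lipid synthesis, O2 lowered 6 and raised 0 in SeS at PN3 and lowered 2 and raised 1 in SeD, with medians of -0.27 and 0.08. In SeS, Scd1, which desaturates fatty acids, fell by 1.29 (SE 0.30, adjusted p = 0.00627) and Fasn, the fatty acid synthase, by 0.94 (SE 0.21, adjusted p = 0.00442). Srebf2, a regulator of sterol synthesis, fell by 0.49 (SE 0.11, adjusted p = 0.00439), and Acly, which supplies acetyl-CoA, by 0.38 (SE 0.11, adjusted p = 0.0128). In SeD, Srebf2 fell by 0.33 (adjusted p = 0.0219) and Fasn by 0.58 (adjusted p = 0.0346), while Agpat2 rose by 1.19. Leaving out the Alb library gave 11 lower and 1 higher in SeS and 2 lower and 2 higher in SeD, and in SeD Fasn (-0.41, adjusted p = 0.147) and Agpat2 (0.22, adjusted p = 0.182) were no longer called.

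Of 18 genes of surfactant turnover and secretion, 1 rose and 1 fell in SeS and 3 rose and 1 fell in SeD with O2 at PN3, with medians of 0.04 and -0.04. Prdx6, a peroxidase with phospholipase activity that degrades surfactant lipid, rose by 0.49 (SE 0.13, adjusted p = 0.00918) in SeS and by 0.41 (SE 0.13, adjusted p = 0.0154) in SeD. Ctsh, a protease that cuts the precursors of surfactant proteins B and C, rose by 0.50 in SeD (SE 0.19, adjusted p = 0.0392), and in SeS it was at 0.43 (adjusted p = 0.0908). Ctsh is also among the further AT2 markers above, so its call is counted in both lists. Adgrf5, the receptor that limits the surfactant pool, fell by 0.53 in SeD (adjusted p = 0.0198), and was at -0.33 (adjusted p = 0.0709) without the Alb library. In that fit 2 rose and 2 fell in SeS, and 3 rose and 1 fell in SeD.

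For 17 transcriptional regulators listed for the AT2 cell, the medians at PN3 were -0.03 and 0.04. Of these, 1 was called in each diet, Yap1, the effector of Hippo signalling. It fell by 0.31 (SE 0.09, adjusted p = 0.0191) in SeS and by 0.44 (SE 0.09, adjusted p = 0.00208) in SeD. Without the Alb library Yap1 was again called lower in each diet. In that fit Hopx in each diet (0.40 and 0.46) and Elf5 in SeS (0.46) were called higher. Hopx is also in the list of type 1 cell genes below, so it is counted in both lists. Etv5 lies downstream of fibroblast growth factor signals, and 14 further genes of that axis were read. In SeS 2 fell and 0 rose (median -0.11), and in SeD 5 fell and 1 rose (median -0.40). Fgf10, a ligand from the mesenchyme, fell by 0.60 (SE 0.19, adjusted p = 0.0234) in SeS and by 0.79 (SE 0.19, adjusted p = 0.0038) in SeD. Spred2, an inhibitor of the pathway, fell by 0.43 (adjusted p = 0.0234) in SeS and by 0.58 (adjusted p = 0.00303) in SeD. Etv1, a factor of the same family as Etv5, fell by 0.72 (SE 0.16, adjusted p = 0.00237) in SeD and was at -0.39 (adjusted p = 0.0675) in SeS. In the fit of 23 libraries 4 fell in each diet.

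Markers of other epithelial states and of macrophages were read at PN3 as well. Of 16 type 1 cell genes, 0 were called in SeS and 1 in SeD, Igfbp2, which liver also expresses, at 1.64 with the Alb library and 0.04 without it. Without that library Hopx (0.40) was called higher and Igfbp2 (-0.53) lower in SeS, and Hopx (0.46) and Cldn18 (0.37) higher in SeD. These are the same Hopx values as given above among the transcriptional regulators. Of 15 genes of the transitional state between type 2 and type 1 cells, 5 rose and 1 fell in SeS and 6 rose in SeD, with a median of 0.39 in each. Cdkn1a, which halts the cell cycle, rose by 1.83 (SE 0.23, adjusted p = 0.00015) in SeS and by 2.16 (SE 0.23, adjusted p = 3.45e-05) in SeD. Krt18, a keratin of simple epithelium, rose by 0.56 in SeS (SE 0.18, adjusted p = 0.0288) and by 1.15 in SeD (SE 0.19, adjusted p = 0.000402). The difference between diets in its O2 effect was not called (0.59, SE 0.26, adjusted p = 0.581 by edgeR). The gene that fell in SeS was Fn1, by 0.85 (SE 0.23, adjusted p = 0.011). Without the Alb library 7 of the 15 rose and 2 fell in SeS, and 11 rose and 1 fell in SeD. Of 14 macrophage genes, 8 rose in SeS and 7 in SeD, with none lower and medians of 0.70 and 0.63, and 9 and 7 rose without the Alb library. The summed macrophage level at PN3 was 1474 to 1808 CPM in SeS RA, 2163 to 2440 CPM in SeS O2, 1484 to 2196 CPM in SeD RA and 1574 to 2697 CPM in SeD O2, and none of the 14 was at 0. The part of these cells in the values of the 10 genes was not tested.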

How the data were processed

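Whole-lung RNA-seq counts of 24 libraries in 8 groups of 3 were analysed. The authors deposited raw counts of reads per gene, made with FastQC, trimmomatic, HISAT2 on GRCm39 and featureCounts; the annotation release is not given in the sources used here. The deposited sheets of the authors' own comparisons hold fold changes and p-values and were not used. Each library was grouped by its title; 0 columns were left unmapped.

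Under R 4.3.3, edgeR 4.0.16 was run with TMM factors and a mean for each of 8 groups (filterByExpr, minimum count 10, minimum total 15, robust quasi-likelihood F-test, prior count 0.125), and p were adjusted over all 23831 genes (Benjamini-Hochberg). The study's methods name DESeq2 with no model. A call needed an adjusted p under 0.05 and a log2 fold change beyond 0.25 in size, in 21 comparisons. The common biological coefficient of variation was 0.263. RPKM used GRCm39 exon lengths; promoters came from RefSeq. The fit was tested on simulated data with less spread than these data and no outlying library. That test therefore does not show how the fit does on these data. Alternatives were DESeq2 1.42.0, limma 3.58.1 (voomWithQualityWeights), other scalings and filters, a replicate block, fits of the compared groups only and leaving out each library; dropping the libraries with most Alb and a sex term were added after seeing the data. The robust estimate was also chosen after counts over all genes from the fit without it, now an alternative, had been seen, to match earlier processing of these data. The shares of all genes called in O2 between diets depend on it. Replicate numbers were not taken to pair libraries. The mean r of deviations between same-numbered libraries was 0.017 at PN1 and -0.049 at PN3. Between libraries of other numbers it was -0.011 and 0.026.

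All 10 genes were named. Of each further list, up to 4 genes with the smallest unadjusted p in the comparison were named, and the 8 genes with the highest r to the mean of the 10. The genes and lists were chosen with earlier results of these data known.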

Additional observations from a re-analysis of the deposited data

How the results depend on the processing

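Counts of called genes among the 10 depended on the tool, the scaling and single libraries, and the cause was not tested. The share of all genes called moved too. For O2 against RA in SeS at PN3 it was 27.6% in the main fit, 30.6% with DESeq2 and 41.8% with limma-voom. For PN3 against PN1 in SeD RA it was 21.8%, 22.9% and 40.1% in the same order. The counts that follow are therefore not results about the 10 genes alone. Limma-voom counts that use SeD RA PN1 rest mainly on its replicate 1. Leaving out each library in turn gave 0 to 5 called for O2 against RA in SeS at PN3, 0 to 2 in SeD at PN3, 0 to 3 over both ages in either diet, 0 to 1 for PN3 against PN1 in SeS RA and SeD RA, 0 to 5 in SeD O2 and 0 to 1 for the difference of the O2 effect between ages in SeD. For O2 against RA in SeS at PN3 the count was 3 with RLE factors, with genes of at least 5 CPM, with DESeq2 and with only the groups compared, 6 with limma-voom, 2 with a sex term and 5 without the 3 libraries with the most Alb. Over both ages in SeS it was 4 with limma-voom and 3 with RLE factors, at least 5 CPM, DESeq2, only the groups compared, a sex term or without the 3 libraries. In SeD at PN1 it was 2 with limma-voom and 2 without the 3 libraries, and at PN3 2 and 3. Over both ages in SeD the main count of 1 became 2 with RLE factors, 3 with at least 5 CPM or DESeq2, 6 with limma-voom, 4 without the 3 libraries and 0 with no filter, only the groups compared, SeS O2 PN1 replicate 2 placed in RA, a non-robust fit or a sex term. For PN3 against PN1, SeS RA gave 2 with limma-voom and 1 with only the groups compared or without the 3 libraries; SeD RA gave 1 with RLE factors, DESeq2 or only the groups compared, 6 with limma-voom and 2 without the 3 libraries; SeS O2 gave 3 with limma-voom; SeD O2 gave 3 with DESeq2, 4 with limma-voom and 0 with library totals, no filter, only the groups compared or without the 3 libraries. Without those 3 libraries Sftpb (0.19) and Napsa (0.12) turned to positive values for PN3 against PN1 in SeD O2. The replicate block called 1 gene for O2 against RA in SeS at PN3 (Sftpd) and 1 over both ages, and changed no other count. The replicate numbers were not taken to pair the libraries. No diet or diet by O2 value was called in any of 3240 recomputed values.

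With 3 libraries a group, a gene that was not called is not shown to be unchanged.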
